A study of Homo sapiens with 6 samples.

Results

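The 45 genes described here are DNA replication and S phase genes, chosen by name for what their products do at the replication fork or in supplying it, and found by symbol among the 58174 genes of the deposited expression table. The study asked what depletion of FTO, an enzyme that removes methyl groups from adenosines in RNA, does to gastric cancer cells. Total RNA of cells labelled AGS, a line derived from a human gastric adenocarcinoma, was sequenced in 6 libraries with a stranded kit, 3 titled si-NC and 3 titled si-FTO. The study's methods describe transfection with siRNA against FTO and also stable lines made with lentivirus, and do not say which was used for the sequenced cells. The si-NC libraries carry the genotype label wild type and the si-FTO libraries the label FTO-/-, so titles and genotype labels name different ways of removing FTO. The table gives 1 mean per group in TPM, a unit of transcript abundance that corrects for gene length and library size. No value per library was used here, so the error between libraries is unknown, no difference below has a test, and the sequencing depth cannot be read from the values.

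FTO itself was examined first. Its mean level was 33.1 TPM in si-NC against 7.27 TPM in si-FTO (log2 ratio -2.05), lower in the group labelled as depleted. Throughout, the log2 ratio is log2 of (mean TPM + 1) in si-FTO minus the same in si-NC, and a gene was counted as lower or higher when the ratio reached 1 in size, which is 2-fold. A value in parentheses after a pair of levels is the log2 ratio. The labelled cell type was then checked against marker genes, and the groups differed widely there. Of all genes that reached 0.5 TPM in at least 1 group, 17.0% were lower and 11.4% higher in si-FTO. Of 20 epithelial markers, 12 reached this minimum, 8 of them higher and 2 lower in si-FTO. The summed level over the 20 was 112 TPM in si-NC against 5393 TPM in si-FTO. Of this list, KRT7, ELF3, CLDN3 and CLDN4 reached the minimum only in si-FTO. KRT8, a keratin of simple epithelia and the list's most abundant gene in si-FTO, stood at 10.8 TPM in si-NC against 3139 TPM in si-FTO. Its partner KRT18 stood at 52.1 TPM in si-NC against 1851 TPM in si-FTO. KRT7 was listed at 0 in si-NC and at 253 TPM in si-FTO. The 2 lower genes were SPINT2, at 38.2 TPM in si-NC against 7.99 TPM in si-FTO, and CDH1, at 3.67 TPM in si-NC against 0.685 TPM in si-FTO. The adhesion molecule EPCAM was low in both, at 1.22 and 0.113 TPM, and KRT19 was at 0 and 0.13 TPM. Of 15 gastric markers, 5 reached the minimum, 3 were lower and 1 higher, and the sum was 72.9 TPM in si-NC against 34.8 TPM in si-FTO. The secreted gastric products TFF1, PGC, LIPF, GKN1 and GKN2 were listed at 0 in both groups, and the transcription factors GATA4 and SOX2 at 37 and 13.2 TPM in si-NC and at 0 in si-FTO. MUC1, the higher gene, was at 1.71 TPM in si-NC against 31.0 TPM in si-FTO, where it made up most of the sum. Among 14 mesenchymal markers, of which 12 reached the minimum, 2 were higher and 5 lower, summing to 571 TPM in si-NC against 831 TPM in si-FTO. The most abundant was VIM at 439.9 TPM in si-NC against 752 TPM in si-FTO, and N-cadherin (CDH2) stood at 53.7 TPM in si-NC against 1.25 TPM in si-FTO. Of 13 neural markers 6 reached the minimum and 3 were lower. They summed to 62.1 TPM in si-NC, led by NCAM1 at 16.0 TPM, and to 20.1 TPM in si-FTO, where NCAM1 was at 0.0288 TPM. Of the 11 blood and endothelial markers, 10 were found and 5 reached the minimum, with sums of 11.9 TPM in si-NC against 52.1 TPM in si-FTO. PTPRC was at 0 in both groups, and CDH5 of endothelial junctions was at 0.00827 TPM in si-NC against 40.9 TPM in si-FTO. Both groups are labelled AGS, and whether both means come from the same cell line cannot be told from these values. What part these differences in marker genes have in the values below was not tested.

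In each cell cycle DNA is copied from many origins. In G1 the origin recognition complex, with CDC6 and CDT1, loads the ring-shaped MCM helicase onto DNA, where it stays inactive, and at the start of S phase CDC45 and the GINS complex join it and turn it into the moving helicase, with MCM10 taking part. Primase lays down short RNA primers, and polymerase alpha, in the same complex, extends them first. Polymerases delta and epsilon then extend the strands on the sliding clamp PCNA, and replication protein A coats the single strands. Enzymes of nucleotide synthesis keep the fork supplied. Many genes of this machinery are transcribed under E2F factors at the G1 to S transition. Tumour cell lines in culture express these genes at high levels.

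All 45 members passed the minimum of 0.5 TPM in at least 1 group, and none was listed at 0 in either. In si-FTO, 5 of them were lower by 2-fold or more (11.1%), against 17.0% of the 20493 genes compared and 12.1% of the 9746 genes with a mean over both groups of at least 10 TPM, so the share of members was close to that of genes at this level. None was higher by 2-fold or more, against 11.4% of the genes compared and 12.1% of those of at least 10 TPM, and 40 members lay within 2-fold. The 5 were GINS4, GINS1, MCM10, CDC45 and PRIM1, and 4 of them belong to the 6 genes that turn the loaded helicase into an active one, whereas 1 of the 39 other members was lower by 2-fold. The members nearest the threshold were PRIM1, just inside at -1.01, and GINS3, just outside at -0.98. Below 0 lay 30 log2 ratios (66.7%) and above 0 lay 15, and 59.9% of all genes compared and 57.5% of those of at least 10 TPM were below 0. The median was -0.25 over the members, -0.20 over all genes compared and -0.14 over genes of at least 10 TPM. Scaling the group means by their median ratio took away a shift of -0.21 and left 2 members lower by 2-fold, GINS4 and GINS1, with 25 ratios below 0 and 20 above. Over genes of at least 10 TPM it moved the shares to 8.22% lower and 15.0% higher. The members' share of all TPM was nearly the same, 0.496% in si-NC against 0.485% in si-FTO. In bulk samples such as these, fewer cells in S phase and less RNA of a gene per cell cannot be told apart.

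**Figure D1:**
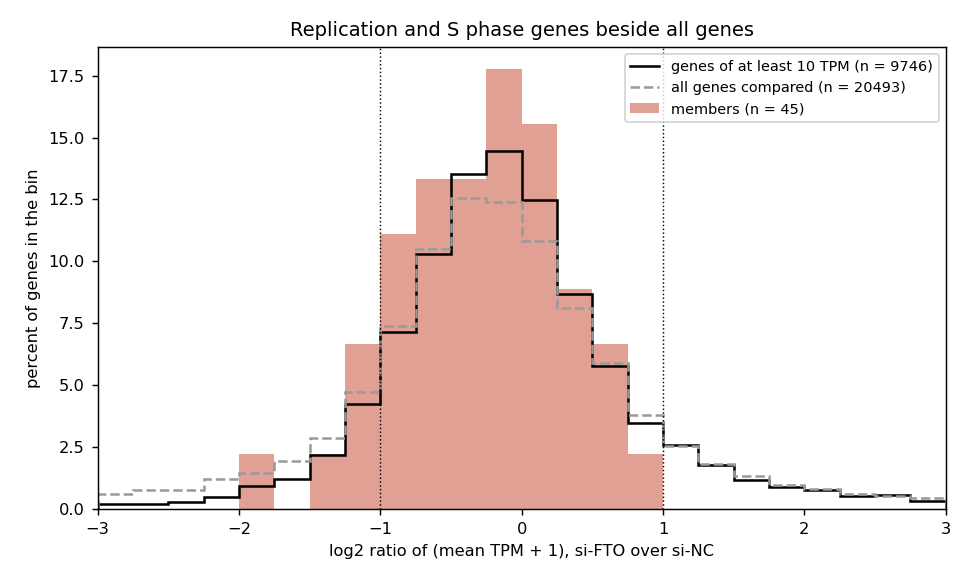
Share of genes per bin of 0.25 in log2 ratio (x axis, si-FTO over si-NC; y axis, percent of genes) for the 45 members as bars, the 9746 genes of at least 10 TPM as a solid line and the 20493 genes compared as a dashed line, with 2-fold dotted and genes beyond the plotted range left out. The bars follow the lines in the middle and end below a ratio of 1 on the right.

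Much of the common control of these genes is attributed to E2F factors, so their promoters were read for E2F words, from 250 bases before to 50 bases after the start. RefSeq promoters (GRCh38.p14) were found for 39 of the 45 members, and MCM4, MCM5, GINS4, POLD3, RPA2 and RPA3 were not matched. At least 1 of the 8-letter words TTTCCCGC, TTTGGCGC, TTTCGCGC and TTTGCCGC, on either strand, was present in 18 of 39 members (46.2%), against 3.99% of the 27305 genes with a promoter and 7.39% of those at 10 TPM or more in these cells. Without the leading T the words, which include the longer ones, were present in 28 of 39 members (71.8%), against 15.3% and 26.8%. CCAAT, the word of NF-Y, was present in 23 of 39 members, against 39.7% of all genes with a promoter, 44.3% of those of at least 10 TPM and 21 of 25 of a G2 and mitosis list. The E-box CACGTG was present in 5 (12.8%), against 8.77% of all genes and 13.6% of those of at least 10 TPM. TTTGAA, a word typical of genes of G2 and mitosis, was present in 1 member, RRM1, or 2.56%, against 18.2% of all genes, 12.98% of those of at least 10 TPM and 19 of 25 genes (76.0%) of the G2 and mitosis list. Members with and without an 8-letter E2F word overlapped in ratio. The median was -0.18 over the 18 with such a word, from -1.32 for GINS1 to 0.76 for TYMS, and -0.39 over the 21 without. Of the members with a promoter that were lower by 2-fold, 1 had an 8-letter word and 3 did not. For CCAAT, 4 had the word and 0 did not, a difference that was not tested. The medians went the other way, -0.23 over the 23 members with CCAAT and -0.35 over the 16 without. The last 60 bases before the start (for MCM6, bases 89 to 30 before it) are shown for members of different roles and different ratios, on the strand of the gene, with the 7-letter words in capitals in either orientation. PRIM1 was lower by 2-fold. The others were within 2-fold: GINS2 below 0, ORC1 and MCM6 almost level, and MCM3, TK1, PCNA and TYMS above 0.
GINS2 (chr16:85688955-85689014, minus strand): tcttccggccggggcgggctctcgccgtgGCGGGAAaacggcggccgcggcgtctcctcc
PRIM1 (chr12:56752324-56752383, minus strand): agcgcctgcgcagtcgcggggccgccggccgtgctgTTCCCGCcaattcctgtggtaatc
ORC1 (chr1:52404424-52404483, minus strand): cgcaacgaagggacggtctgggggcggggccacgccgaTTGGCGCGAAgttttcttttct
MCM6 (chr2:135876473-135876532, minus strand): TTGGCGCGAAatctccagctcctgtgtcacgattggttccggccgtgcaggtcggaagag
MCM3 (chr6:52284743-52284802, minus strand): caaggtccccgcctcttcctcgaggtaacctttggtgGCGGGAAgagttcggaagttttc
TK1 (chr17:78187053-78187112, minus strand): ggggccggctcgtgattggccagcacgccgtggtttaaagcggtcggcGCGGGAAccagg
PCNA (chr20:5126623-5126682, minus strand): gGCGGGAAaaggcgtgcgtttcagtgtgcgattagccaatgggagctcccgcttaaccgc
TYMS (chr18:657593-657652, plus strand): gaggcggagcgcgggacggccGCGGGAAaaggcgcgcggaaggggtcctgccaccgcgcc
The word GCGGGAA, which is TTCCCGC read on the other strand, stands before the start in GINS2, MCM3, TK1, PCNA and TYMS, and in ORC1 and MCM6 overlapping words on both strands make up the same 10 letters, TTGGCGCGAA. These are matches of letters and were not tested as binding sites.

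Most of the loading factors had ratios below 0, while the subunits of the helicase they load lay on both sides of 0. Of the 6 subunits of the origin recognition complex, which marks origins, 5 had ratios below 0, and the median was -0.44, or -0.24 after median-ratio scaling. ORC3 had 52.8 TPM in si-NC against 30.2 TPM in si-FTO (-0.79). ORC6, a subunit bound less tightly to the others, had 69.0 TPM in si-NC against 42.4 TPM in si-FTO (-0.69). ORC5 had 50.2 TPM in si-NC against 36.7 TPM in si-FTO, and ORC2 had 35.0 TPM in si-NC against 25.5 TPM in si-FTO, so both had a log2 ratio of -0.44. ORC1, the subunit whose level changes through the cell cycle, was the exception at 49.6 TPM in si-NC against 51.9 TPM in si-FTO, and ORC4 was the least abundant of the 6 in si-NC at 28.8 TPM, with 25.6 TPM in si-FTO. CDT1, which brings the helicase to the origin, was at 74.7 TPM in si-NC against 50.7 TPM in si-FTO (-0.55). CDC6, the ATPase that acts with it, was at 65.8 TPM in si-NC against 61.2 TPM in si-FTO (-0.10). After median-ratio scaling ORC4 and CDC6 were above 0, at 0.038 and 0.11. Geminin (GMNN), the inhibitor of CDT1, was at 99 TPM in si-NC against 58.8 TPM in si-FTO. The ratio of CDT1 to GMNN in TPM was 0.755 in si-NC against 0.863 in si-FTO.

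MCM2 to MCM7 form a ring with 1 copy of each, and their levels lay close together, between 158 TPM (MCM6) and 355 TPM (MCM7) in si-NC and between 158 and 334 TPM in si-FTO, a 2.24-fold and a 2.11-fold range. Their log2 ratios had a median of 0.07, which was 0.28 after median-ratio scaling and -0.02 after quantile normalization, so the sign depends on the scaling. MCM4 was the lowest in ratio, with 271 TPM in si-NC against 187 TPM in si-FTO (-0.53). MCM2 was the highest, with 225 TPM in si-NC against 305 TPM in si-FTO (0.44). MCM3 stood at 213 TPM in si-NC against 262 TPM in si-FTO and MCM5 at 202 TPM in si-NC against 224 TPM in si-FTO. MCM7 was the most abundant of the 45 members in si-NC, and MCM6 had 158 TPM in both groups. None of the 6 reached 2-fold in any setting tried, and the ring as a whole summed to 1424 TPM in si-NC against 1470 TPM in si-FTO.

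**Figure D2:**
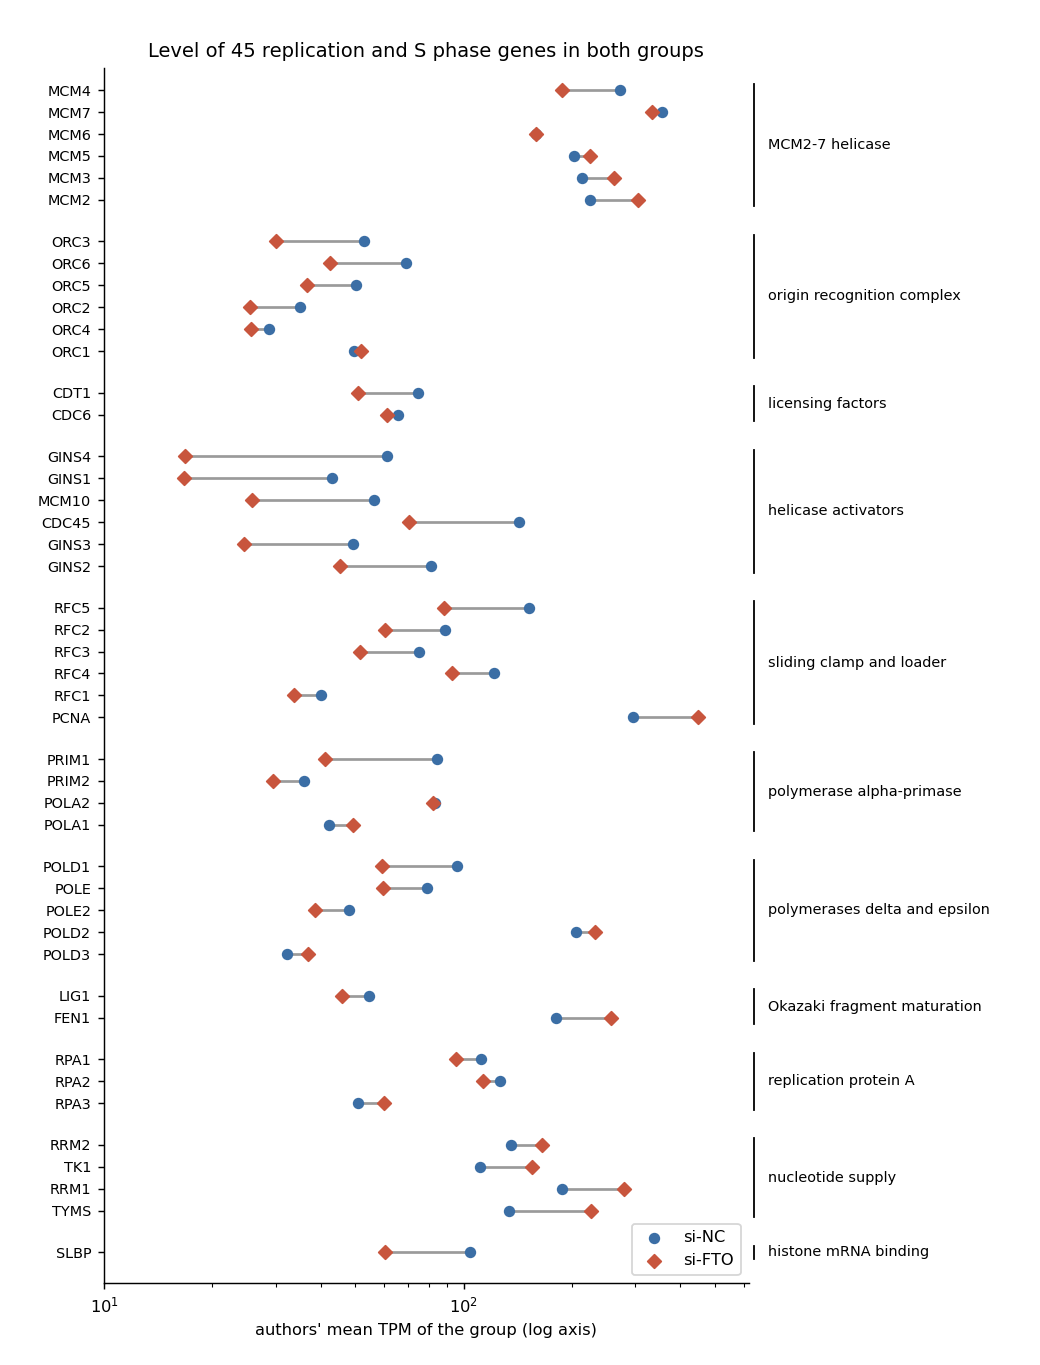
Authors' mean TPM (x axis, log scale) of each of the 45 members, grouped by role, with si-NC as circles, si-FTO as diamonds and a line joining them; each point is 1 group mean with no error known. GINS4 and GINS1 have the longest lines to the left, and the nucleotide supply genes lie to the right in si-FTO.

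The genes that activate the loaded helicase had the lowest median of all roles, -1.05, or -0.84 after median-ratio scaling. Of these genes 6 of 6 were below 0, also after that scaling and after quantile normalization. The other settings tried cannot change a sign. GINS4 (also called SLD5), a subunit of the GINS complex that holds CDC45 on the helicase, was at 61.2 TPM in si-NC against 16.8 TPM in si-FTO (-1.80), and 7.19% of the genes compared had a lower ratio. GINS1 (PSF1) was at 43.1 TPM in si-NC against 16.6 TPM in si-FTO (-1.32). These were the 2 members that stayed past 2-fold in every setting tried. GINS3 had 49.2 TPM in si-NC against 24.5 TPM in si-FTO (-0.98), and GINS2 had 81.0 TPM in si-NC against 45.4 TPM in si-FTO (-0.82). GINS is built from 1 copy of each subunit, and its members were spread 1.88-fold in si-NC and 2.73-fold in si-FTO, where GINS1 and GINS4 had the lowest levels of all 45 members. CDC45, the other partner of the helicase, was at 142 TPM in si-NC against 70.2 TPM in si-FTO (-1.01). MCM10, which is needed for origin DNA to unwind, was at 56.3 TPM in si-NC against 25.9 TPM in si-FTO (-1.09). CDC45 and MCM10, like PRIM1 of the primase, were within 2-fold with a pseudocount of 5 and after median-ratio scaling, and GINS3 reached 2-fold with a pseudocount of 0.1. Set beside the ring they activate, the summed level of MCM2 to MCM7 was 3.29 times that of the 6 activators in si-NC and 7.37 times in si-FTO. The median over GINS1 to GINS4 was 55.2 TPM in si-NC against 20.7 TPM in si-FTO.

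**Figure D3:**
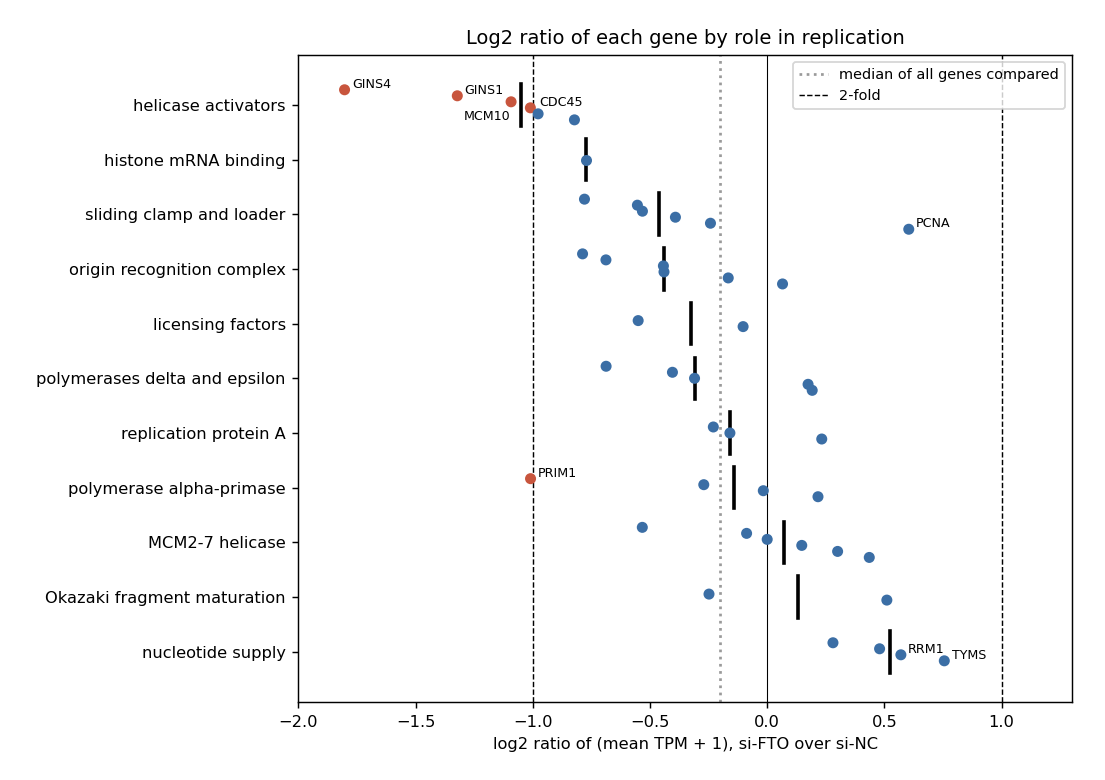
Log2 ratio of (mean TPM + 1), si-FTO over si-NC (x axis), of each member by role (y axis, ordered by median); each point is a gene, red where lower by 2-fold or more, black bars are role medians, dashed lines 2-fold and the dotted line the median of all genes compared, -0.20. All 6 helicase activators lie left of that median and all 4 nucleotide supply genes right of 0.

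At the fork, PRIM1, the catalytic subunit of primase, was at 84.0 TPM in si-NC against 41.2 TPM in si-FTO (-1.01). Its partner PRIM2, the large subunit, was at 35.9 TPM in si-NC against 29.6 TPM in si-FTO (-0.27). POLA1, the catalytic subunit of DNA polymerase alpha, was above 0, with 42.1 TPM in si-NC against 49.1 TPM in si-FTO (0.22). The accessory subunit POLA2 was at 83.0 TPM in si-NC against 82.0 TPM in si-FTO. All of them sit in the same complex, yet the ratio of POLA1 to PRIM1 in TPM was 0.502 in si-NC against 1.19 in si-FTO. The median of the complex was -0.14, or 0.06 after median-ratio scaling, so its sign depends on the scaling. The 5 subunits of replication factor C, which opens the clamp and places it on DNA, were all below 0, from RFC5 with 152 TPM in si-NC against 88.0 TPM in si-FTO (-0.78) to RFC1 with 40.2 TPM in si-NC against 33.8 TPM in si-FTO (-0.24). Between these lay RFC2 (-0.55), RFC3 (-0.53) and RFC4 (-0.39), and all 5 stayed below 0 after median-ratio scaling, RFC1 at -0.04. The clamp itself, PCNA, was the opposite, with 295 TPM in si-NC against 449 TPM in si-FTO (0.60), and was the most abundant member in si-FTO. The ratio of PCNA to RFC5 was 1.95 in si-NC against 5.11 in si-FTO.

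Polymerases delta and epsilon, which copy the bulk of the lagging and the leading strand, had a median of -0.31 over 5 subunits, or -0.10 after median-ratio scaling. POLD1, the catalytic subunit of delta, was at 95.9 TPM in si-NC against 59.2 TPM in si-FTO (-0.69), while its accessory subunits POLD2, with 205 TPM in si-NC against 231 TPM in si-FTO (0.17), and POLD3, with 32.3 TPM in si-NC against 37 TPM in si-FTO (0.19), had ratios above 0. The ratio of POLD1 to POLD2 was 0.468 in si-NC against 0.256 in si-FTO. For epsilon, the catalytic POLE was at 79.0 TPM in si-NC against 59.5 TPM in si-FTO (-0.40) and POLE2 at 48.0 TPM in si-NC against 38.5 TPM in si-FTO (-0.31). Of the enzymes that trim and join Okazaki fragments, the flap nuclease FEN1 was above 0, with 180.2 TPM in si-NC against 257 TPM in si-FTO (0.51). The ligase LIG1 was not, with 54.5 TPM in si-NC against 45.8 TPM in si-FTO (-0.25). Replication protein A, which protects single-stranded DNA, stayed near 0. RPA1 was at 112 TPM in si-NC against 95.3 TPM in si-FTO (-0.23). RPA2 was at 126 TPM in si-NC against 113 TPM in si-FTO (-0.16), and the small subunit RPA3 at 50.8 TPM in si-NC against 59.9 TPM in si-FTO (0.23). None of these 10 genes reached 2-fold, and the median of replication protein A turned from -0.16 to 0.05 with median-ratio scaling.

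All 4 members that make deoxynucleotides had ratios above 0, also after median-ratio scaling and after quantile normalization. The median was 0.53, or 0.74 after median-ratio scaling, and none reached 2-fold. TYMS, which makes thymidylate, was at 134 TPM in si-NC against 226 TPM in si-FTO and had the highest ratio of the 45 members (0.76). RRM1, the large subunit of ribonucleotide reductase, was at 187 TPM in si-NC against 278 TPM in si-FTO (0.57). RRM2, its small subunit in S phase, was at 135 TPM in si-NC against 165 TPM in si-FTO (0.28). TK1, the cytosolic thymidine kinase of dividing cells, was at 111 TPM in si-NC against 155 TPM in si-FTO (0.48). Together the 4 summed to 567 TPM in si-NC against 824 TPM in si-FTO. SLBP, which binds the stem-loop at the end of replication-dependent histone mRNAs, was at 104 TPM in si-NC against 60.5 TPM in si-FTO (-0.77).

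Position on the chromosome was set beside these ratios as a description. For each member the median log2 ratio of the 50 nearest genes of at least 10 TPM on its chromosome was taken, with positions from a GRCh37 annotation (the assembly also called hg19), and these medians ran from -0.72 around MCM5 to 0.51 around MCM2. MCM2 had almost the ratio of its neighbours (0.44 beside 0.51), as did SLBP (-0.77 beside -0.65), ORC3 (-0.79 beside -0.66) and POLD3 (0.19 beside 0.19). MCM5, by contrast, had 0.15 in a neighbourhood at -0.72. GINS1 (chr20:25371644-25433336, plus strand) had -1.32 among neighbours at -0.03, and GINS4 -1.80 among neighbours at -0.47; these were the 2 members lower than their neighbours by 1 or more. PRIM1 (chr12:57124222-57146158, minus strand) had -1.01 beside -0.03 and MCM10 (chr10:13203558-13253110, plus strand) -1.09 beside -0.28. CDC45 (chr22:19466980-19508135, plus strand) and GINS3 lay among neighbours that were low as well, at -0.49 and -0.54. In all, 29 members were below and 16 above their neighbours, with a median difference of -0.12, or -0.14 with the 20 nearest genes. All 6 helicase activators lay below and all 4 nucleotide supply genes above the neighbours.

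**Figure D4:**
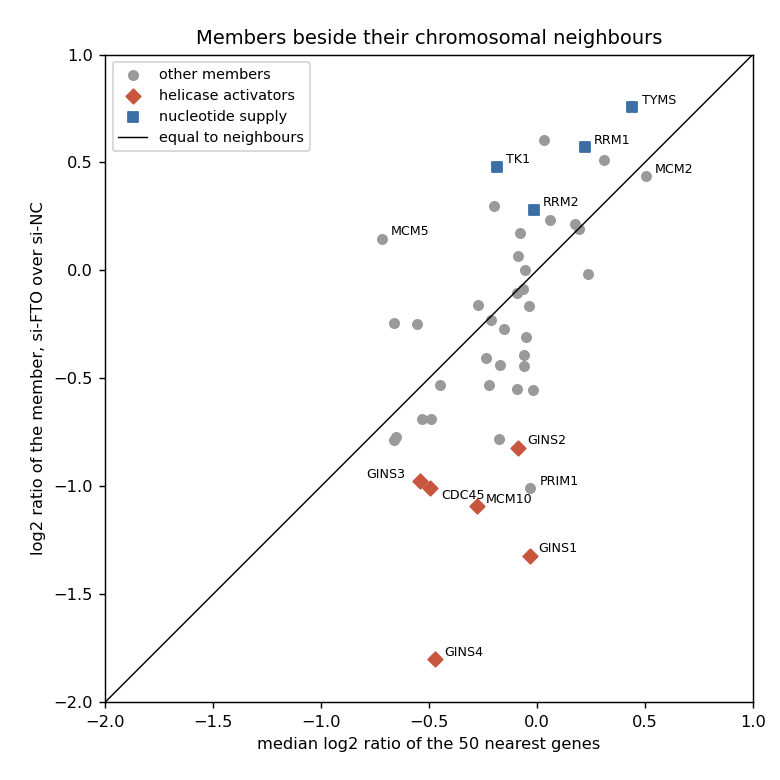
Log2 ratio of each of the 45 members (y axis) against the median log2 ratio of its 50 nearest genes of at least 10 TPM (x axis), with helicase activators as diamonds, nucleotide supply genes as squares and equality as a line. GINS4 and GINS1 lie farthest below the line, and MCM5 farthest above it.

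Overlap with other genes leaves some of these levels uncertain, because how reads were assigned by strand is not given in the sources used here. Exon bases were shared with another gene of at least 0.5 TPM by 14 members, 4 of them on the same strand. PRIM1 shares 139 exon bases on its own strand with NACA, a far more abundant gene at 969.9 TPM in si-NC against 847 TPM in si-FTO. GINS1 shares 259 bases with NINL on the opposite strand, and TYMS shares 967 bases with ENOSF1 on the opposite strand, which was itself at 25.9 and 60.1 TPM. None of 18 annotated pseudogene copies of 10 members was above 0.129 TPM, and how reads that fit both a member and a copy were assigned was not tested.

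Other genes of the replication programme were read from lists of their own. Of 36 origin firing and fork factors, 6 were lower by 2-fold (16.7%) and 1 was higher (2.78%). The shares were 17.0% and 11.4% over all genes compared, and 12.1% each way over genes of at least 10 TPM. The median was -0.44, against -0.25 for the members, and -0.23 after median-ratio scaling. CDC7, the kinase that fires the loaded helicase, was the lowest at 65.1 TPM in si-NC against 22.4 TPM in si-FTO (-1.50). DBF4, its activating subunit, was at 13.3 TPM in si-NC against 7.83 TPM in si-FTO (-0.70). Also lower by 2-fold were LRWD1, DNA2, TIPIN, MCM9 and SSBP1, which the list holds although it binds single-stranded DNA in mitochondria and not at nuclear forks. POLD4, a small subunit of polymerase delta, was the gene that was higher, with 12.7 TPM in si-NC against 39.6 TPM in si-FTO (1.57). Of 23 genes of nucleotide metabolism outside the members, 16 had ratios below 0 (69.6%, against 59.9% of all genes compared) and 7 above. PPAT was lower by 2-fold. TK2, the mitochondrial thymidine kinase, was higher by 2-fold, at 4.19 TPM in si-NC against 24.7 TPM in si-FTO. The median of this list was -0.24, or -0.026 after median-ratio scaling. Of 17 genes of replication-coupled chromatin assembly 1 was lower by 2-fold, CHAF1B of the histone chaperone CAF-1, with 40.5 TPM in si-NC against 14.0 TPM in si-FTO (-1.47), and the median was -0.26, or -0.055 after that scaling. Among 18 genes of the E2F and RB family E2F5 was lower by 2-fold (34.9 TPM in si-NC against 12.8 TPM in si-FTO). E2F1, an activator of S phase genes, was at 56.3 TPM in si-NC against 93.4 TPM in si-FTO (0.72), and E2F4, mainly a repressor, at 90.7 TPM in si-NC against 52.5 TPM in si-FTO (-0.78). The median was -0.18, or 0.02 after median-ratio scaling. None of 30 genes of G2 and mitosis reached 2-fold, from TTK (-0.91) to CENPF (0.96), with a median of 0.08, or 0.29 after median-ratio scaling. The members, from GINS4 (-1.80) to TYMS (0.76), reached further down than this list and not as far up.

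**Figure D5:**
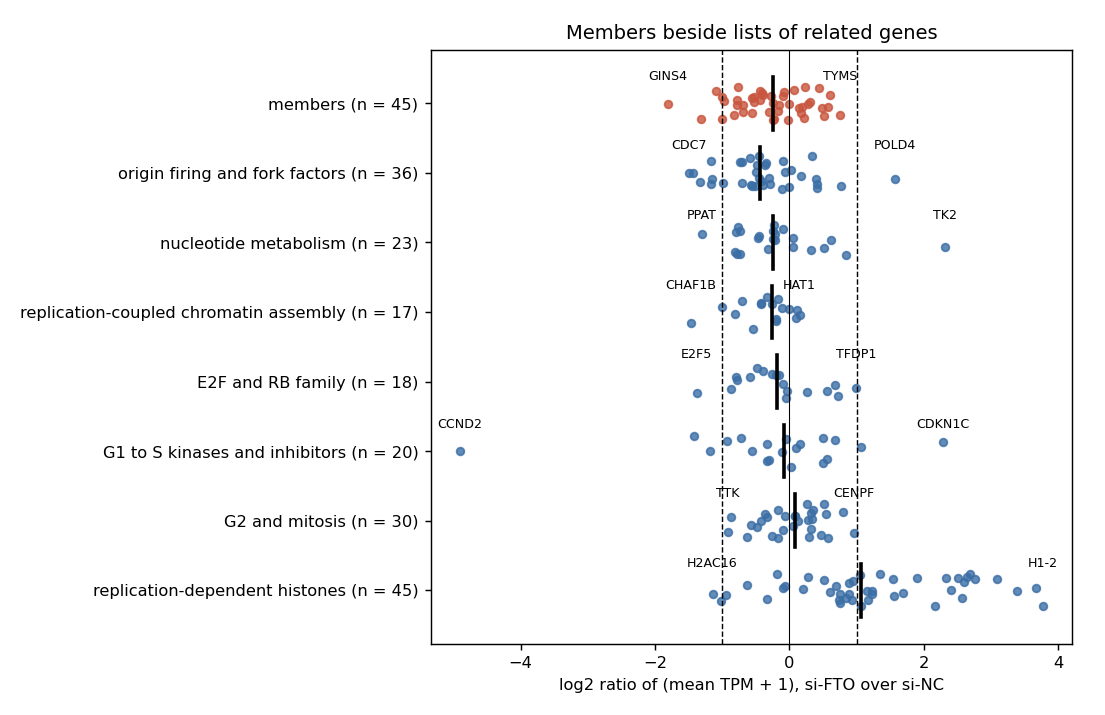
Log2 ratio of (mean TPM + 1), si-FTO over si-NC (x axis), of the members and of 7 lists of related genes (y axis, with the number compared); each point is a gene spread vertically for legibility, black bars are medians, dashed lines 2-fold, and the lowest and highest gene of each list are named. The G2 and mitosis list lies within 2-fold, the median of the histone list is 1.06, and genes listed at 0 in a group, such as CCND2, are placed by the pseudocount of 1.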

How the data were processed

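Total RNA of cells labelled AGS was sequenced in 3 si-NC and 3 si-FTO libraries. The authors deposited gene levels in TPM as 1 mean per group, with no spread. The study's methods name Bowtie, RSEM and hg19, whereas the submitters' processing notes name HISAT2 and hg19; the annotation and any use of strand are not given in the sources used here. TPM keeps no depth, so the depth of the libraries is unknown. The authors' columns of fold change, p-value and q-value between the groups, and a second table that repeats the columns for a subset of genes, were not used.

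A value of 0.0001 was read as 0. Of 58174 identifiers, 55726 matched a symbol. Ratios were log2 of (mean TPM + 1), si-FTO over si-NC, over genes with at least 0.5 TPM in at least 1 group, and a gene was called at 2-fold. No test was possible on group means. The 45 members and the lists of other genes were chosen with earlier results of these data known. All members could be named, and of each other list the extremes, genes past 2-fold, the most abundant markers, markers at 0 and known partners of members; genes overlapping members were named for the overlap. An item of the nucleotide metabolism list is not reported here and was left out of that list. Neighbours came from GENCODE in GRCh37 coordinates and promoters from RefSeq. Alternatives were other pseudocounts, filters, scalings and a 1.5-fold threshold. Scripts (Python 3.11.15, numpy 2.4.6, pandas 2.3.3, matplotlib 3.10.9) were tested on simulated data.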

Additional observations from a re-analysis of the deposited data

How the results depend on the processing

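Over the alternatives, 312 of the log2 ratios of single genes, the members and FTO, kept their call and, for genes within 2-fold, moved by less than 0.1. A further 40, of genes within 2-fold, moved by 0.1 or more, 10 gained a call, 6 lost 1 and 0 reversed. All 40 came with median-ratio scaling, which took away a shift of -0.21 and moved every member within 2-fold. The 312 include values that could not move. Other filters, or keeping the value read as 0, leave the ratios of these genes unchanged, and the 1.5-fold threshold can change only a call. Called genes that kept their call are among the 312 whatever their shift. These counts take each gene once per alternative: the 6 lost calls are CDC45, MCM10 and PRIM1, each with a pseudocount of 5 and after median-ratio scaling. The gained calls came with the 1.5-fold threshold, and GINS3 gained a further call with a pseudocount of 0.1. The number of members lower by 2-fold was 5 as reported; it was 2 with a pseudocount of 5, 2 after median-ratio scaling and 12 at a 1.5-fold threshold, where 2 members were higher, PCNA and TYMS. Over genes of at least 10 TPM the share lower was 9.20% with a pseudocount of 5, 8.22% after median-ratio scaling and 25.5% at 1.5-fold, where 18.8% were higher. Over all genes compared these shares were 7.78%, 14.1%, 31.2% and 18.8%. The median over the members was -0.040 after median-ratio scaling. The median over all genes compared was 0 with no filter, -0.020 after median-ratio scaling and -0.032 after quantile normalization. All 6 helicase activators stayed below 0 and all 4 nucleotide supply genes above 0 after median-ratio scaling and after quantile normalization. The other alternatives cannot change the sign of a member's ratio. No paired analysis was possible because the libraries, numbered 1 to 3 in each group, are given only as 1 mean per group; for the same reason no library could be left out in turn. With group means alone and no depth, a difference between neighbouring levels cannot be set against the error between libraries.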

Other observations

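Replication-dependent histone genes, whose mRNAs SLBP binds, were read as another list. Of 61 genes found, 45 reached 0.5 TPM in at least 1 group, 24 of these were higher by 2-fold (53.3%, against 11.4% of all genes compared), 2 were lower (4.44%, against 17.0%) and 19 lay within 2-fold. Many were near the floor, with 34 of the 61 under 1 TPM in si-NC. Some of the 45 reached the minimum only in si-FTO, such as H2AC8 at 0 in si-NC against 11.7 TPM in si-FTO. Others reached it only in si-NC, such as H2AC16 at 1.21 TPM in si-NC against 0 in si-FTO. The share counted as higher is therefore set in part by the filter. The median log2 ratio of the 45 was 1.06, and was 0.54 with a pseudocount of 5 and 1.60 with a pseudocount of 0.1. Other filters changed the genes: the median was 0.75 over the 61 with no filter and 2.42 over those reaching 5 TPM. The linker histone H1-2 was at 18.5 TPM in si-NC against 265 TPM in si-FTO (3.77), and H2BC12, the most abundant of the list, at 132 TPM in si-NC against 313 TPM in si-FTO (1.23). These mRNAs mostly lack a poly(A) tail, and whether polyadenylated RNA was selected is not given in the sources used here. The summed level of the list was 2.29 times that of SLBP in si-NC and 15.3 times in si-FTO, and H1-2 and H2BC12 make up most of both sums.

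Among 20 kinases, cyclins and inhibitors of the G1 to S transition, 3 were lower (15%) and 2 higher (10%) by 2-fold, close to the 17.0% and 11.4% of all genes compared. The median was -0.08, or 0.11 after median-ratio scaling. Cyclin D2 (CCND2) was at 28.9 TPM in si-NC but was listed at 0 in si-FTO, while its kinase partner CDK6 was at 19.9 TPM in si-NC against 6.78 TPM in si-FTO (-1.42). The phosphatase CDC25A, which activates CDK2, was at 103 TPM in si-NC against 44.8 TPM in si-FTO (-1.18). The inhibitors CDKN1A, at 41.1 TPM in si-NC against 87.1 TPM in si-FTO (1.06), and CDKN1C, at 3.89 TPM in si-NC against 22.9 TPM in si-FTO (2.29), were the higher genes. Cyclin E1 (CCNE1) was almost level at 45.5 TPM in si-NC against 46.1 TPM in si-FTO, cyclin E2 (CCNE2) was at 8.76 TPM in si-NC against 13.3 TPM in si-FTO (0.55) and CDK2 at 73.8 TPM in si-NC against 118 TPM in si-FTO (0.67). Cyclin A2 (CCNA2), also within 2-fold, was at 121 TPM in si-NC against 62.9 TPM in si-FTO (-0.93). None of 15 mitochondrially encoded genes reached 2-fold. Their median was -0.47, beside -0.20 over all genes compared, and was -0.26 after median-ratio scaling.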
